A study of Homo sapiens with 4 samples.

Results

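The genes described here are the protein-coding genes of human chromosome 19 whose symbol is ZNF followed by digits only, placed by GENCODE release 29. The annotation holds 240 such genes and the deposited tables hold all 240. A gene was kept when its estimated read counts summed to 20 or more over the 4 libraries, 1 gene that passed was left out by the rule of selection, and 204 of the 58174 genes in the tables remained. The 35 genes under that sum stood as close as ZNF556 with 19.8 reads, ZNF486 with 19 and ZNF253 with 18.9, and the lowest genes kept were ZNF730 with 20.2, ZNF506 with 24.1 and ZNF682 with 37. The choice used expression summed over both groups and no difference between them.

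The cells were 293FT, a human embryonic kidney line in which the SV40 large T antigen is expressed, and their RNA was sequenced. 2 libraries had the genotype NIPBLwt and 2 the genotype NIPBLmut, all grown in the same serum-containing medium. Ribosomal RNA was removed from total RNA before directional libraries were prepared. The labels do not say what the NIPBL mutation is, whether each group came from 1 clone, or whether the libraries of a group came from separate cultures, so the p-values measure only the spread between these libraries, which may be technical.

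Most of these genes encode C2H2 zinc finger proteins in which a row of DNA-binding fingers follows a KRAB domain. The KRAB domain binds TRIM28 (KAP1), which brings the histone methyltransferase SETDB1 and heterochromatin proteins of the HP1 family to the bound DNA, and many of these proteins silence transposable elements. The genes arose by repeated tandem duplication, and chromosome 19 carries them in several clusters along both arms. NIPBL loads cohesin, the ring complex that forms chromatin loops. Heterozygous NIPBL mutations are the most frequent known cause of Cornelia de Lange syndrome.

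Deposited counts summed to 31545743 and 33161120 in the NIPBLwt libraries and to 31932304 and 32768728 in the NIPBLmut libraries, so that 1 read was worth between 0.0287 and 0.0334 CPM (reads scaled to a common library total, here with edgeR's TMM factors). NIPBL itself stood at 41.8 and 44.4 CPM in NIPBLwt and at 61 and 61.9 in NIPBLmut (log2 fold change 0.51, SE 0.11, adjusted p = 0.057), and a gene-level count does not show which allele was read. The NIPBLwt libraries differed from each other far more than the NIPBLmut libraries did, with a chi-square per gene of 44.57 against 3.966. The 10 line markers summed to 1212 and 1352 CPM in NIPBLwt and to 923 and 876 in NIPBLmut, with KRT8 and EPCAM called higher and NEFM and LIN28B among 3 called lower. The fibroblast list ran from 7.49 to 12.1 CPM in NIPBLwt and from 17.6 to 18.5 in NIPBLmut, with LUM and PDGFRB called higher, COL3A1 called lower and COL1A2 at 0 in all libraries. The blood list ran from 1.27 to 1.77 and from 3.47 to 3.55 CPM, with CD3E and HBB at 0, and the hepatocyte list ran from 0.201 to 0.225 and from 0.65 to 0.689 CPM. The part of these shifts in the values below was not tested, and in bulk RNA fewer cells with a transcript and less of it per cell cannot be told apart.

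The stretches upstream of the genes that moved are shown first, so that genes of 1 cluster can be compared with each other. They are RefSeq promoters of GRCh38.p14, read 5′ to 3′ up to the gene start, without bases that lie inside the GENCODE gene. Capitals mark GGGCGG (the GC box) and CCAAT (the CCAAT box), in either orientation. The first 5 lie upstream of genes that were lower in NIPBLmut and lie near each other on the short arm.
ZNF700 (chr19:11924857-11925067, plus strand): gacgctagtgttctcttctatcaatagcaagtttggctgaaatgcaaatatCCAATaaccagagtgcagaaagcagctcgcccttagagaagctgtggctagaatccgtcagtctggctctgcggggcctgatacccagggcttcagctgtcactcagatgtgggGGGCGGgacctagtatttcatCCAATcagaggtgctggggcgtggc
ZNF625 (chr19:12156735-12156984, minus strand): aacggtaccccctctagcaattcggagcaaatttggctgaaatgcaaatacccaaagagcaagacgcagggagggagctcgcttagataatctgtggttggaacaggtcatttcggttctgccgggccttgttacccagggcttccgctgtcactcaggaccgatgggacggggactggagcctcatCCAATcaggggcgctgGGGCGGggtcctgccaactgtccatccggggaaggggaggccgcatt
ZNF136 (chr19:12162846-12163063, plus strand): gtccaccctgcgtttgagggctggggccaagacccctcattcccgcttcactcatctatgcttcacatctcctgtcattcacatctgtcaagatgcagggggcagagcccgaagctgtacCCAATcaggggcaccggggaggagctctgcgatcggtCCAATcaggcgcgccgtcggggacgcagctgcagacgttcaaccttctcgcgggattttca
ZNF44 (chr19:12294888-12295133, minus strand): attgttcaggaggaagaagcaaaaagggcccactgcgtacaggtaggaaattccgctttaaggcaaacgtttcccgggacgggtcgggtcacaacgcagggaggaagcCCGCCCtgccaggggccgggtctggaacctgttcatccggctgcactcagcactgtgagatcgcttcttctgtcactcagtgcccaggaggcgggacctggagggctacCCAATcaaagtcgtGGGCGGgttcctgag
ZNF563 (chr19:12333721-12333883, minus strand): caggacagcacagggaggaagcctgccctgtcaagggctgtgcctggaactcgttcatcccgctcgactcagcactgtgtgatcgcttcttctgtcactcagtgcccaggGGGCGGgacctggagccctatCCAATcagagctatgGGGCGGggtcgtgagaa
The next pair belongs to the genes of 19p12 that were higher in NIPBLmut.
ZNF257 (chr19:22052234-22052451, plus strand): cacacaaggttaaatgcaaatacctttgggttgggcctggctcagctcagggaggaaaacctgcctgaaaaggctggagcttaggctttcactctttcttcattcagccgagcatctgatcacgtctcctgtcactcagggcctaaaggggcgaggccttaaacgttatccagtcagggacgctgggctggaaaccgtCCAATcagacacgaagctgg
ZNF726 (chr19:23914636-23914875, plus strand): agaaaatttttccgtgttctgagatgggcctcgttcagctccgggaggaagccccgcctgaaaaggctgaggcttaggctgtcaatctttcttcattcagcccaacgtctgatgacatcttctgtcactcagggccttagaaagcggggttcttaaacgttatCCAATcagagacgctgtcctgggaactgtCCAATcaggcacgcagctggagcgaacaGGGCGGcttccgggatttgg
The last pair belongs to genes of the distal long arm that were nearly silent in NIPBLmut.
ZNF880 (chr19:52369673-52369916, plus strand): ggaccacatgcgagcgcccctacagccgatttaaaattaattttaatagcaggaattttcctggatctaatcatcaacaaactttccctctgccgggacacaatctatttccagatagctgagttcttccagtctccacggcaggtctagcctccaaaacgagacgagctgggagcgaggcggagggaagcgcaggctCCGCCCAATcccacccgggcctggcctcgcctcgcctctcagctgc
ZNF671 (chr19:57727625-57727874, minus strand): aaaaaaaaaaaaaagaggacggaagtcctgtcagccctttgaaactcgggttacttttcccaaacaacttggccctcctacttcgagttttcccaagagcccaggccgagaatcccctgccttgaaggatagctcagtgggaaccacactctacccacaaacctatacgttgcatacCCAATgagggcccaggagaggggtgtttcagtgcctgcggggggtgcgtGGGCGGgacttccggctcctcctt

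ZNF44 and ZNF563 share an unbroken run of 30 identical bases in these stretches, ZNF700 and ZNF625 one of 19, and ZNF257 and ZNF726 one of 17. The other pairs shown here within a cluster shared less, such as 9 bases in ZNF700 and ZNF136, while pairs from different clusters reached 15, in ZNF44 and ZNF563 with ZNF726. ZNF808 and ZNF813 of the ZNF175 cluster, whose stretches are not shown, shared 20. In the 250 bases before the RefSeq start, GGGCGG was present in 64.7% of the 184 genes with a promoter in the table, against 42.3% of all 27305 promoters, and CCAAT in 48.9% against 33%. The cyclic AMP response element TGACGTCA was present in 2.72% against 1.77%. Members had a median of 16 CpG dinucleotides in the window, against 11 over all promoters. Among the 6 genes of the ZNF653 cluster called lower, 5 had GGGCGG and 6 had CCAAT, and among its 13 genes not called, 13 and 11 did.

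A longer form of the CCAAT box, CCAATCAG, which contains CCAAT and was looked for after the sequences had been read, followed position on the chromosome. It was present, on either strand, in all 21 matched tested genes of the 19p12 cluster and in 16 of 19 of the ZNF653 cluster, both on the short arm, and in 3 of 4 of a smaller run at 2.8 to 2.9 Mb, against 1088 of all 27305 promoters (3.98%). It was absent from the 13 matched genes of the ZNF557 cluster, the 4 of the ZNF302 cluster, the 22 of the ZNF565 cluster, the 19 of the ZNF575 cluster and the 47 of the ZNF628 cluster, and present in 1 of 26 of the ZNF175 cluster. Within the ZNF653 cluster it did not separate genes by their change, being present in 5 of the 6 called lower and in 11 of the 13 not called.

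Clusters were taken from the annotation, as runs of ZNF genes with gaps of no more than 1 Mb, and are named here by their first gene. The 8 clusters with 5 or more tested genes hold 188 of the 201 tested genes. ZNF506, ZNF682 and ZNF730, all in 19p12, fell under edgeR's filter on low counts and were not tested. On the short arm lie the ZNF557 cluster (7.1 to 9.8 Mb, 14 tested), the ZNF653 cluster (11.5 to 12.6 Mb, 19 tested) and the ZNF101 cluster of 19p12 (19.7 to 24.1 Mb, 22 tested). On the long arm lie the ZNF302 cluster (34.7 to 35.0 Mb, 5 tested), the ZNF565 cluster (36.2 to 37.8 Mb, 23 tested), the ZNF575 cluster (43.5 to 45.1 Mb, 23 tested), the ZNF175 cluster of 19q13.4 (51.6 to 53.6 Mb, 30 tested) and the ZNF628 cluster (55.5 to 58.5 Mb, 52 tested).

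Of the 201 tested genes, 3 were called higher in NIPBLmut (1.49%) and 11 lower (5.47%), at an adjusted p under 0.05 by edgeR's quasi-likelihood test. Over all 18984 tested genes, 3.71% were called higher and 2.10% lower (5.81% in either direction), and over protein-coding genes 4.44% and 2.48%. With all 4 libraries, the share of lower calls exceeded that of all genes in every alternative fit. It was 4.98% beside 1.44% with scaling by total counts. The surplus was smallest with DESeq2, which called 15 of the 201 lower (7.46%) beside 6.35% of all genes. Among the fits with 1 library left out, the surplus was absent without NIPBLwt replicate 2 and present in the others. The higher genes were ZNF257, ZNF726 and ZNF285. The lower genes were ZNF700, ZNF625, ZNF136, ZNF44, ZNF563 and ZNF442 of the ZNF653 cluster, ZNF880, ZNF808, ZNF28 and ZNF813 of the ZNF175 cluster, and ZNF671 of the ZNF628 cluster. For 86 of the 204 genes the annotation places another gene across them on their own strand, and for 104 on the other strand, and how the counting treated strand is not given here.

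The median of the set lay close to that of all genes. The median log2 fold change was -0.039, beside -0.0055 over all tested genes and -0.006 over protein-coding genes, with 92 positive and 109 negative values. The groups did not overlap for 57.7% of the set, against 63.2% of all tested genes and 67.0% of protein-coding ones. Summed over the tested genes, the libraries stood at 3100 and 3619 CPM in NIPBLwt and at 3177 and 3243 in NIPBLmut, so that the NIPBLmut sums lay between the NIPBLwt sums. NIPBLwt replicate 2 was higher than replicate 1 by a median of 0.18 on the log2 scale in these genes, against -0.017 over all genes. Relative to the median of all genes, the set's median was -0.19 without NIPBLwt replicate 1 and 0.074 without NIPBLwt replicate 2, so its sign depended on which control library was kept.

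**Figure D1:**
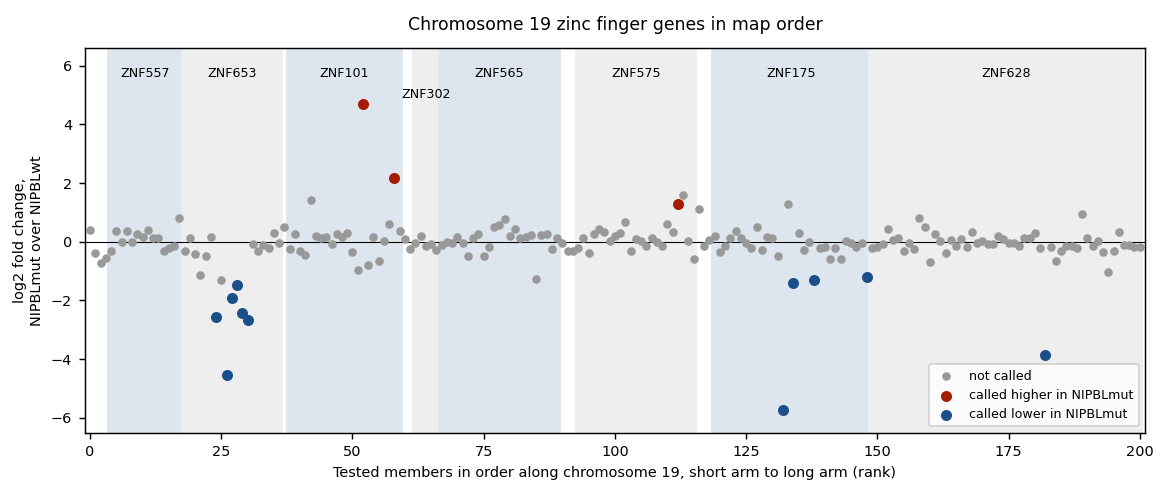
Each point is 1 of the 201 tested genes, in order along the chromosome on the x axis, with its log2 fold change (NIPBLmut over NIPBLwt) on the y axis; shaded bands mark the 8 described clusters by first gene, blue points the 11 genes called lower and red points the 3 called higher. Most points lie near 0, and 6 of the blue points stand close together in the ZNF653 band, with the uncalled point of ZNF20 among them.

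The ZNF653 cluster held 6 of the 11 lower calls, among its 19 tested genes, with none called higher and a median of -0.43 on the log2 scale. All 6 lay in 1 stretch of 441 kb, from ZNF700 to ZNF442 (chr19:11925068-12365905, hg38), which was delimited after the values were seen. The stretch holds 11 annotated ZNF genes, of which 7 were tested and all 7 had negative values, with a median of -2.44. Their summed level fell from 23.3 and 24.7 CPM in NIPBLwt to 6.71 and 5.77 in NIPBLmut. The other 12 tested genes of the cluster summed to 140.4 and 148 CPM in NIPBLwt and to 126 and 135 in NIPBLmut, with a median log2 fold change of -0.16 and no call.

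ZNF700 was read at 5.86 and 4.05 CPM in NIPBLwt and at 1.03 and 0.631 in NIPBLmut, a log2 fold change of -2.57 (SE 0.36, adjusted p = 0.0322). ZNF136 stood at 5.64 and 9.66 CPM against 1.95 and 2.10 (log2 fold change -1.92, SE 0.32, adjusted p = 0.0397). ZNF44 stood at 7.21 and 6.92 CPM against 2.84 and 2.30 (log2 fold change -1.46, SE 0.22, adjusted p = 0.0344). These are the most abundant genes of the stretch, and in each of them both NIPBLmut libraries lay well under both NIPBLwt libraries.

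The other genes of the stretch were expressed at about 1 CPM in NIPBLwt. ZNF625 had 28 and 39 reads in NIPBLwt and 3 and 0 in NIPBLmut, a ratio of 25.2 with an exact interval at 95% of 8.25 to 125 that covers counting error only (adjusted p = 0.0427). ZNF563 stood at 1.38 and 1.17 CPM against 0.177 and 0.287 (log2 fold change -2.44, SE 0.41, adjusted p = 0.0391). Its effective length shifted by -0.81 on the log2 scale, and with lengths in the model the fold change was -1.64 and no longer called (adjusted p = 0.0772). ZNF442 stood at 0.870 and 1.0 CPM against 0.0887 and 0.201 (log2 fold change -2.65, SE 0.49, adjusted p = 0.0449). In all 3 the groups were far apart, although the NIPBLmut values rest on 10 reads or fewer in a library. Genes this low can pass the filter on low counts through NIPBLwt alone, so the distance between the groups is a description only.

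ZNF20, between ZNF700 and ZNF625, had 1.38 and 0.568 CPM against 0.532 and 0.258 and did not pass the test (log2 fold change -1.3, SE 0.60, adjusted p = 0.215). The remaining 4 ZNF genes of the stretch (ZNF763, ZNF433, ZNF878 and ZNF844) had 15 reads in all in NIPBLwt and 10 in NIPBLmut, too few to test. ZNF625 shares its strand with the read-through gene ZNF625-ZNF20 (0.944 against 0.344 CPM on average, adjusted p = 0.469) and ZNF700 with AC008770.2, so their reads could be split in more than 1 way, and ZNF44 overlaps the pseudogene AC012618.3 on the other strand. Outside the stretch the nearest to a call was ZNF441, at 5.06 and 5.92 CPM against 2.19 and 2.87 (log2 fold change -1.12, SE 0.25, adjusted p = 0.0603). It lies on the telomeric side of ZNF700 and was picked out after its values were seen.

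**Figure D2:**
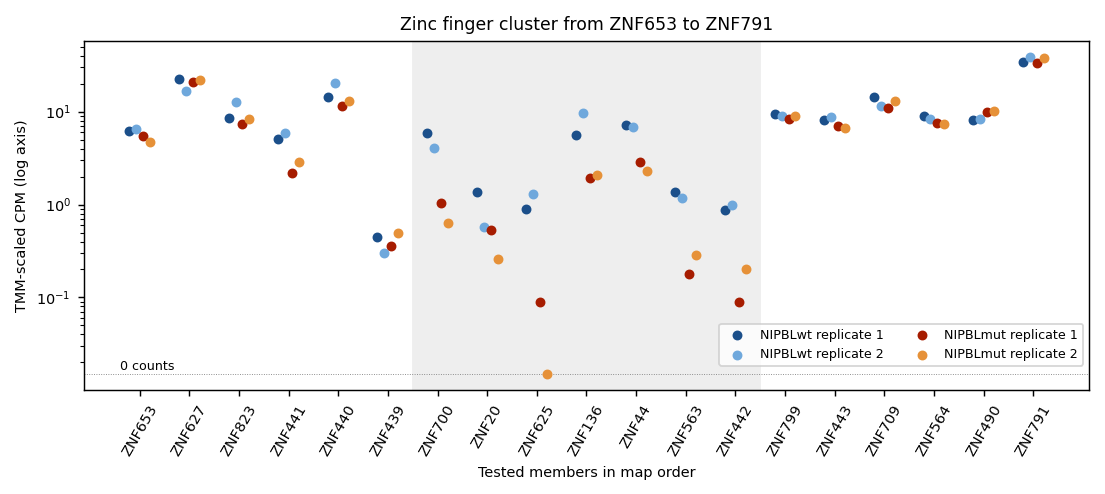
TMM-scaled CPM (log axis) of the 19 tested genes of the ZNF653 cluster in map order, 1 point per library, with blue for the 2 NIPBLwt and red and orange for the 2 NIPBLmut libraries; points on the dotted line have 0 counts. In the shaded stretch from ZNF700 to ZNF442 the NIPBLmut points lie below the NIPBLwt points for all 7 genes, and on both sides of it the groups lie closer together, with ZNF441 farthest apart.

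The 7 other tested protein-coding genes inside the span of the cluster were not called, and their median was -0.062. Only 1 of them, the read-through gene ZNF625-ZNF20, lies in the 441 kb stretch. The others therefore do not show how genes of other kinds behaved within it. ECSIT, ELOF1 and CNN1 lie on its telomeric side. The mitochondrial complex I assembly factor ECSIT (-0.062) and the elongation factor ELOF1 (-0.10) were close to 0, and the smooth muscle calponin gene CNN1 had 0.676 and 0.334 CPM against 2.22 and 1.72 (log2 fold change 1.95, SE 0.42, adjusted p = 0.0585). Within 1 Mb on either side of the cluster, the median over 57 tested protein-coding genes was 0.00085, and AC010422.5 was the 1 gene called lower.

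In the 19p12 cluster, 2 genes rose and none was called lower, and 14 of 22 values were positive (median 0.15). ZNF726 stood at 1.51 and 1.34 CPM in NIPBLwt and at 6.71 and 6.26 in NIPBLmut, a log2 fold change of 2.18 (SE 0.23, adjusted p = 0.0231). ZNF257 had 0 and 1 reads in NIPBLwt and 17 and 19 in NIPBLmut, a ratio of 32 with an exact interval at 95% of 5.38 to 1297 (adjusted p = 0.0405). The effective length of ZNF257 shifted by 0.77, and with lengths in the model it was no longer called (log2 fold change 3.99, adjusted p = 0.076). Both NIPBLmut libraries agreed closely in each gene, and ZNF257 stayed at about 0.5 CPM even where it was higher. AC011503.2, a non-coding transcript inside a ZNF726 intron on the same strand, moved with it, from 0.161 and 0.1 CPM to 1.12 and 1.29 (log2 fold change 3.17, SE 0.44, adjusted p = 0.0305).

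Changes in 19p12 ran in both directions among the genes just short of a call, which were picked out after their values were seen. ZNF85 had 0.966 and 1.17 CPM in NIPBLwt and 2.63 and 3.04 in NIPBLmut (log2 fold change 1.41, SE 0.28, adjusted p = 0.0514). ZNF91, which is known for silencing SVA retrotransposons, had 19.1 and 16.9 CPM against 11.2 and 11.6 (log2 fold change -0.66, SE 0.14, adjusted p = 0.0576). ZNF43 had 4.77 and 4.75 CPM against 2.42 and 2.50 (log2 fold change -0.95, SE 0.21, adjusted p = 0.0611). ZNF714, the most abundant gene of the cluster at 25.5 TPM (the deposited scale, which allows for transcript length), showed a log2 fold change of 0.14 (SE 0.12, adjusted p = 0.443). A further 12 annotated genes of this cluster were under 20 reads in all and summed to 17 reads in NIPBLwt and 77 in NIPBLmut, out of 73 and 145 over the 35 such genes of the chromosome. The largest rises among the 12 were in ZNF253 (1 to 18 reads) and ZNF676 (0 to 11). Positive values were common at low levels in general, in 1037 of 1343 tested protein-coding genes under 1 CPM.

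The ZNF175 cluster of 19q13.4 had 4 of 30 tested genes called lower and none higher. ZNF880 fell from 37 and 22 reads in NIPBLwt to 1 and 0 in NIPBLmut, a ratio of 66.4 with an exact interval at 95% of 11.5 to 2668 (adjusted p = 0.0322). ZNF28 stood at 14.9 and 19.5 CPM against 6.80 and 7.29 (log2 fold change -1.29, SE 0.19, adjusted p = 0.0336). It was the most abundant of all 11 lower genes and overlaps, on the same strand, ZNF468, whose log2 fold change was -0.20 (adjusted p = 0.576). ZNF808, whose loss in humans is known to prevent development of the pancreas, stood at 3.16 and 3.14 CPM against 1.09 and 1.29 (log2 fold change -1.40, SE 0.27, adjusted p = 0.0463). ZNF813 stood at 8.02 and 10.7 CPM against 4.23 and 3.90 (log2 fold change -1.20, SE 0.22, adjusted p = 0.0449).

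The 4 genes are not neighbours, since they lie among members that were not called. ZNF701, which overlaps ZNF808 on the same strand, had a log2 fold change of 0.30 (adjusted p = 0.352). The mix of transcripts counted also differed between the groups for ZNF813 and ZNF808, with the effective length shifted by -0.54 and 0.54 on the log2 scale. With effective lengths in the model, ZNF813 was no longer called (log2 fold change -0.61, adjusted p = 0.243). ZNF845, the most abundant gene of the cluster at 8.75 TPM, showed a log2 fold change of 0.026 (SE 0.19, adjusted p = 0.939). The cluster's median was -0.17, and relative to all genes it was -0.32 without NIPBLwt replicate 1 and 0.035 without NIPBLwt replicate 2.

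ZNF671, a gene often silenced by promoter methylation in tumours, was the only called gene among 52 in the ZNF628 cluster. It fell from 1.13 and 1.1 CPM in NIPBLwt to 0.0887 and 0.0574 in NIPBLmut (log2 fold change -3.87, SE 0.46, adjusted p = 0.0274), with 3 and 2 reads left in the NIPBLmut libraries. It lies inside AC003006.1, which runs on the other strand. ZNF544, of the same cluster, was the nearest to a call at 32.0 and 47.0 CPM against 19.6 and 18.9 (log2 fold change -1.04, SE 0.20, adjusted p = 0.0506) and was picked out after its values were seen. ZNF787, the most abundant gene of the cluster at 18.9 TPM, had a log2 fold change of -0.042 (SE 0.17, adjusted p = 0.89). The cluster's median was -0.089, and relative to all genes it was -0.25 without NIPBLwt replicate 1 and 0.077 without NIPBLwt replicate 2.

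The ZNF575 cluster had 1 call among 23 genes. ZNF285 rose from 1.71 and 1.37 CPM in NIPBLwt to 3.81 and 3.76 in NIPBLmut (log2 fold change 1.3, SE 0.26, adjusted p = 0.0499), and it shares its strand and start with AC245748.1. ZNF229, which had the largest fitted change of the cluster, had 0.547 and 1.07 CPM against 2.57 and 2.35 and did not pass the test (log2 fold change 1.60, SE 0.39, adjusted p = 0.0697). It passed without the filter (adjusted p = 0.0462) and in DESeq2 (adjusted p = 0.0344). ZNF428, at 48.1 TPM, had a log2 fold change of 0.11 (SE 0.12, adjusted p = 0.579).

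The remaining clusters had no call. The ZNF557 cluster had a median of 0.12 over 14 genes, with the largest value in ZNF846 (0.81, SE 0.37, adjusted p = 0.208) and the highest level in ZNF121 (45.6 TPM, log2 fold change -0.31, SE 0.13, adjusted p = 0.179). The ZNF302 cluster had a median of -0.07 over 5 genes, with ZNF792 at -0.29 (SE 0.18, adjusted p = 0.335) and ZNF302 at -0.041 (SE 0.11, adjusted p = 0.829). The ZNF565 cluster had a median of 0.14 over 23 genes, and its largest change was in ZNF793, at 1.03 and 0.535 CPM against 0.266 and 0.373 (log2 fold change -1.28, SE 0.49, adjusted p = 0.157). ZNF568, whose mouse counterpart silences a placental transcript of Igf2, had 8.63 and 8.23 CPM against 15.2 and 13.3 (log2 fold change 0.76, SE 0.16, adjusted p = 0.0552) and was picked out after its values were seen. Without NIPBLwt replicate 1 the medians relative to all genes were -0.043 in the ZNF557 cluster and -0.064 in the ZNF565 cluster, where they were 0.12 and 0.14 with all libraries. The 13 tested genes outside the 8 clusters had a median of -0.16 and no call.

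**Figure D3:**
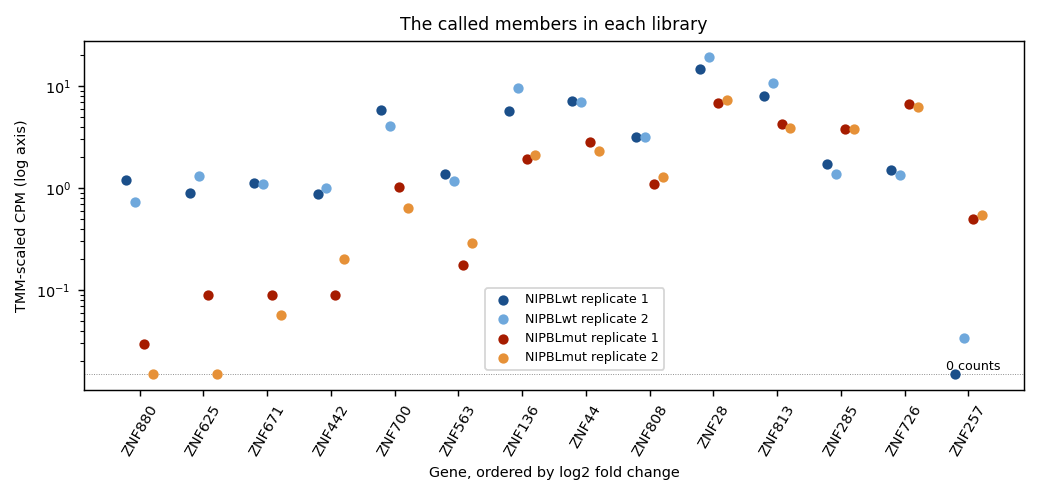
TMM-scaled CPM (log axis) of the 14 called genes in each library, ordered from the most lowered to the most raised; blue points are the 2 NIPBLwt libraries, red and orange the 2 NIPBLmut libraries, and points on the dotted line have 0 counts. The groups do not overlap for any of these genes, and ZNF880, ZNF625, ZNF671 and ZNF442 are at 0.201 CPM or less in both NIPBLmut libraries.

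All 14 calls fell among genes with a mean under 20 CPM over the 4 libraries. Of the 16 tested genes under 1 CPM, 5 were called lower (31.2%), against 14 of 1343 protein-coding genes at that level (1.04%). From 1 to 5 CPM, 4 of 32 were called lower (12.5%), against 18 of 1922 (0.937%). From 5 to 20 CPM, 2 of 106 were called lower (1.89%), against 43 of 3242 (1.33%), and at 20 CPM or more none of 47, against 284 of 7949 (3.57%). Calls in the other direction were 1 of 16 under 1 CPM against 10.3% of protein-coding genes, 2 of 32 from 1 to 5 CPM against 10.1%, none from 5 to 20 CPM against 4.87%, and none at 20 CPM or more against 1.91%. A gene at the lowest levels can pass the filter through 1 group alone. Under 1 CPM the 5 lower genes could do so through NIPBLwt, and ZNF257 through NIPBLmut. Most protein-coding genes under 1 CPM had positive values (1037 of 1343). The shares at each level are therefore a description and support no direction. No test of them was made, since the genes of a cluster lie beside each other and share sequence.

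**Figure D4:**
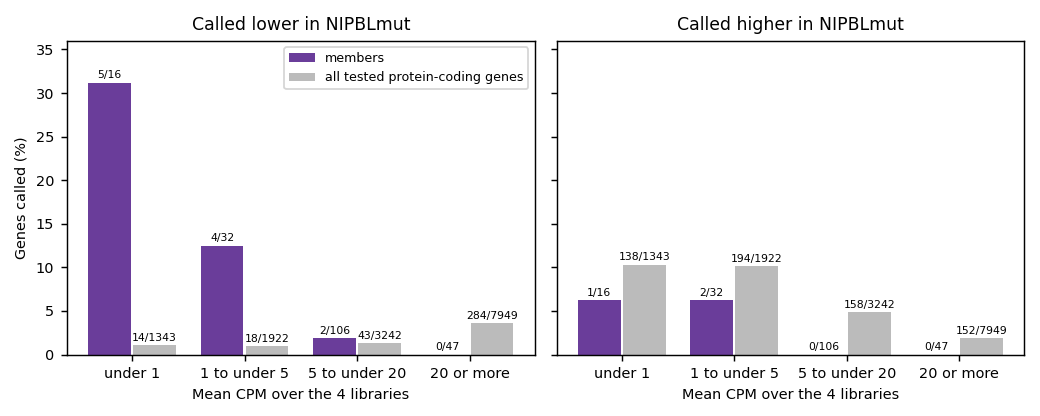
Percentage of genes called lower (left) and higher (right) in NIPBLmut by mean CPM over the 4 libraries, for the chromosome 19 ZNF genes (purple) and all tested protein-coding genes (grey); the numbers above the bars are genes called over genes tested. Below 5 CPM the purple bars for lower calls stand well above the grey ones, and at 20 CPM or more no ZNF gene was called in either direction.

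None of the most abundant genes of the set passed the test. ZNF146, a protein made almost wholly of zinc fingers, led at 69.2 and 84.2 TPM in NIPBLwt and 86.1 and 87.3 in NIPBLmut (log2 fold change of counts -0.016, SE 0.16, adjusted p = 0.955). ZNF428 followed at 48.1 TPM on average and ZNF121 at 45.6. The median gene stood at 3.89 TPM, against 9.04 for tested protein-coding genes, with 23 of 204 at 10 TPM or more and 28 under 1 TPM. Summed TPM of the 204 genes was 1042 and 1123 in NIPBLwt and 1209 and 1238 in NIPBLmut, an order that the CPM sums did not show.

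A gene was said to switch off when both NIPBLwt libraries were at 1 CPM or more and both NIPBLmut libraries under 0.5 CPM, and to switch on in the opposite case. By this definition ZNF563 and ZNF671 switched off and none of the 204 genes switched on. Over all 19762 protein-coding genes, 7 switched off (0.0354%) and 148 switched on (0.749%), against 0.98% and 0 of the set. At 0.5 and 0.25 CPM, ZNF625, ZNF442, ZNF880 and ZNF671 switched off and ZNF257 switched on. At 2 and 1 CPM there was none, and with scaling by total counts 1 gene switched off.

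Neighbouring ZNF genes were also compared by the sign of their change. Of 180 pairs of adjacent tested genes in the 8 clusters, 100 had the same sign. The longest run of 1 sign was 11 genes, from ZNF700 to ZNF564, all negative. Runs of 8 genes occurred in the ZNF565 cluster (positive, median 0.32), the ZNF175 cluster (negative, median -0.25) and the ZNF628 cluster (negative, median -0.21).

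Genes that share the cluster spans without belonging to the set were counted beside all tested protein-coding genes. Of those, 4.44% were called higher and 2.48% lower, and no difference from these shares was tested. Of 97 other tested protein-coding genes inside the 8 clusters, 1 was called higher and 1 lower, with a median of 0.12. ZFP82, a KRAB zinc finger gene of another name in the ZNF565 cluster, fell from 4.28 and 5.68 CPM to 0.148 and 0.258 (log2 fold change -4.59, SE 0.39, adjusted p = 0.0159). AC008878.3, which overlaps ARHGEF18 on the same strand in the ZNF557 cluster, had 0 reads in both NIPBLwt libraries and 4.82 and 7.95 CPM in NIPBLmut, at least 64.8-fold higher than a floor of 3 reads per library (adjusted p = 0.0231). Up to 1 Mb outside the clusters, 277 tested protein-coding genes had 13 higher and 1 lower calls and a median of 0.079. Of 77 tested non-coding genes inside, AC011503.2 alone was called, beside 3.71% of all tested genes called higher and 2.10% lower. The median of the 77 was -0.022.

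**Figure D5:**
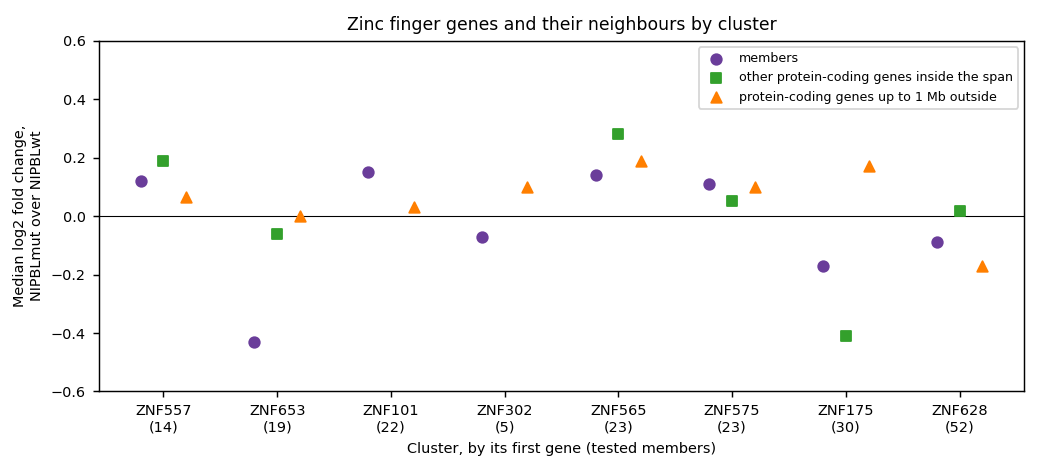
Median log2 fold change (NIPBLmut over NIPBLwt) of the tested ZNF genes (circles), of other protein-coding genes inside each cluster (squares, absent where there are none) and of protein-coding genes within 1 Mb outside (triangles); the number of tested ZNF genes is under each cluster's first gene. The ZNF653 cluster has the lowest circle, at -0.43, with its triangle near 0.

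Zinc finger genes elsewhere had calls in both directions. Over all tested protein-coding genes, 4.44% were called higher and 2.48% lower. The 14 tested zinc finger genes of chromosome 19 with other names (ZFP, ZSCAN, ZIK, ZIM and lettered ZNF symbols) had a median of 0.20 and the single call of ZFP82. Of 216 tested ZNF genes on other chromosomes, 6 were called higher (2.78%) and 6 lower (2.78%), with a median of -0.064. Among them ZNF496 rose from 19.8 and 18.4 CPM to 33.2 and 37.6, and ZNF648 from 0.225 and 0.201 to 1.12 and 1.38. ZNF311 fell from 1.61 and 1.07 CPM to 0.0887 and 0.0574, and ZNF736 from 32.1 and 30.5 to 12.9 and 15.7. The 844 other tested protein-coding genes of chromosome 19 had 19 higher (2.25%) and 5 lower (0.592%) calls and a median of 0.031.

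The proteins that KRAB zinc finger proteins work with were followed as a list of 32 genes, all tested. None was called higher and 1 lower (3.12%), and 26 of 32 values were negative, with a median of -0.26. Tested protein-coding genes at 20 CPM or more had 3.57% called lower, 5009 of 7949 negative values and a median of -0.11, so the share of calls in the list lay near that background. The gene called lower was CBX3, which encodes HP1 gamma and fell from 334 and 395 CPM to 234 and 220.1 (log2 fold change -0.68, SE 0.13, adjusted p = 0.0496). TRIM28 stood at 334 and 449.7 CPM in NIPBLwt and at 308 and 299.6 in NIPBLmut (log2 fold change -0.37, SE 0.17, adjusted p = 0.211). SETDB1 stood at 104 and 101 CPM against 113 and 110.4 (log2 fold change 0.12, SE 0.11, adjusted p = 0.482). The call of CBX3 was absent with either NIPBLmut library left out, with RLE scaling and on the TPM scale. DESeq2 called 5 genes of the list lower, and over all genes it called 6.35% lower, where edgeR called 2.10%.

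Of the 14 calls, those of ZNF700, ZNF136, ZNF726, ZNF880 and ZNF671 remained with either NIPBLmut library left out. Without NIPBLmut replicate 1, ZNF28 had an adjusted p of 0.0626, ZNF44 0.0775, ZNF563 0.189 and ZNF442 0.23. Without NIPBLmut replicate 2, ZNF625 had 0.053, ZNF257 0.0667, ZNF442 0.082, ZNF563 0.0948 and ZNF44 0.198. ZNF808, ZNF813 and ZNF285 were above 0.05 without either, between 0.144 and 0.35. Every called gene kept its direction in each of these fits, in which the lone library of a group is assumed to vary like the other group. The groups overlapped in none of these genes, so leaving out 1 library could hardly change a direction.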

How the data were processed

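Per the file headers, the authors deposited 1 table per library with RSEM expected counts (estimated counts, which need not be whole), TPM and effective lengths for 58174 genes; their FPKM values were not used. The build was hg38 and the tools listed are STAR 2.7.3a and RSEM 1.3.1, per the submitters' processing notes. The sources used here give neither annotation release nor strand setting. Of the gene IDs, 57836 matched GENCODE release 29, which gave symbols and positions.

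Expected counts were rounded and tested with edgeR 4.0.16 (filterByExpr by group, TMM, robust quasi-likelihood fit, R 4.3.3). Benjamini-Hochberg adjustment of p-values ran over 18984 genes, and calls are at 0.05. Log2 fold changes are NIPBLmut over NIPBLwt, and the SE is the fold change divided by the square root of F. With 2 libraries against 2, an exact two-sided permutation p cannot go below 0.333. On simulated counts for 18984 genes of this comparison, 7.5% of genes changed 1.5-fold were recovered, 49.5% at 2-fold, 82.5% at 4-fold and 92% at 8-fold. The simulation gave both groups the same spread and drew changed genes from all levels. These rates need not hold for genes under 20 CPM or for the unlike pairs of libraries here.

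Named genes are NIPBL, every called or switched ZNF gene, the most abundant and most changed gene of each cluster, and up to 2 called genes per direction among other genes of a cluster and in each list; genes chosen otherwise are said to be. The members and lists were chosen with earlier results of these data known. Alternatives were RLE, upper-quartile and total-count scaling, 2 filters, DESeq2 1.42.0, limma 3.58.1 (voom, and trend on log2(TPM + 1) and log2(TPM + 0.1)), effective-length offsets, a replicate block, each library left out, a cluster gap of 0.5 Mb, other switch levels and a member minimum of 200 counts. Protein features were not analysed here.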

Additional observations from a re-analysis of the deposited data

How the results depend on the processing

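Between 3 and 6 genes of the set were called higher with most alternatives. Total counts gave 6 (2.99%, beside 5.86% of all genes), no filter 6 (2.94%, beside 3.38%) and the replicate block 6 (2.99%, beside 7.74%). DESeq2 gave 5 (2.49%, beside 6.82%). A filter of 1 CPM gave 1 (0.538%, beside 3.90%), as did log2(TPM + 0.1) (0.498%, beside 4.09%) and effective-length offsets (0.498%, beside 3.51%). Lower calls were 7 with the filter of 1 CPM (3.76%, beside 2.46% of all genes) and 6 on log2(TPM + 0.1) (2.99%, beside 0.690%). They were 13 with the replicate block (6.47%, beside 4.26%) and 15 with DESeq2 (7.46%, beside 6.35% of all genes). Among genes with 200 or more counts they were 6, and no share of all genes was taken there. ZNF700, ZNF625, ZNF136, ZNF726, ZNF880, ZNF28 and ZNF671 stayed called under every alternative that kept all 4 libraries and tested them. Total counts moved the median of all genes to 0.17, log2(TPM + 1) to 0.12 and log2(TPM + 0.1) to 0.18, so medians here are relative to it. The set's median was then -0.034, and 0.057 on log2(TPM + 1). The ZNF175 cluster (-0.16) had -0.19 without a filter, 0.028 and -0.0092 on log2(TPM + 1) and log2(TPM + 0.1), and -0.026 with effective lengths; the ZNF628 cluster (-0.083) had 0.054 on log2(TPM + 1). Switches numbered 5 at 0.25 and 0.5 CPM, 0 at 1 and 2 CPM and 1 with total counts; the filter, tool and design do not enter them. Other genes inside the clusters called higher were 2 with total counts, limma-voom, log2(TPM + 0.1) and effective lengths, 4 without a filter, 5 with DESeq2 and the block, and 6 on log2(TPM + 1); those called lower were 4 without a filter, 6 with DESeq2 and 3 with the block. Over all genes, limma-voom called 4.70% higher, log2(TPM + 1) 5.18% higher and no filter 2.35% lower, and the other shares are given above. Co-repressor genes called lower were 5 with DESeq2, beside 6.35% of all genes, and 0 with RLE scaling and on both TPM scales. The cause was not tested.

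With 1 library left out, the number of calls changed widely, in the set and over all genes. Leaving out a NIPBLwt library takes the spread from the NIPBLmut pair alone, which gave 32 and 52 higher and 79 and 32 lower calls in the set, where 29.8% and 21.6% of all genes were called higher and 29.9% and 20.3% lower. The set's median ran from -0.19 to 0.074, and cluster medians from -0.043 to 0.20 (ZNF557), -0.57 to -0.27 (ZNF653), 0.053 to 0.16 (ZNF101), -0.064 to 0.23 (ZNF565), 0.0012 to 0.25 (ZNF575), -0.32 to 0.035 (ZNF175) and -0.25 to 0.077 (ZNF628). Switches ran from 2 to 4, other genes inside from 2 to 30 higher and 1 to 29 lower, and co-repressor genes from 0 to 1 higher and 0 to 23 lower. ZNF146 turned to 0.18 without NIPBLwt replicate 2, ZNF787 ran from -0.26 to 0.20 and ZNF845 from -0.21 to 0.29. Same-numbered libraries did not deviate together (correlation -0.05841), so the numbers were not taken as pairs, and the block fit called 6 genes of the set higher and 13 lower, beside 7.74% and 4.26% of all genes. Depth limits the genes under 1 CPM, where 1 read is worth about 0.03 CPM.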
